A study of Mus musculus with 407 samples.

Results

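Fatty acids are one of the main fuels of skeletal muscle, and the 34 genes described here encode the proteins that bring them into the muscle fibre, carry them into mitochondria, break them down and set how much of this fuel is used. The genes were taken by symbol, and each of the 34 stood on 1 row of the gene count tables, which list 24458 symbols in all. RNA of whole muscles of C57BL/6J mice was sequenced in 407 libraries, which form 48 groups of 4 muscles (diaphragm, gastrocnemius, soleus and tibialis anterior), 6 ages (a young adult reference of 6 months, then 12, 18 and 21 months, and the oldest at 24 and 27) and both sexes, with 6 to 10 libraries in a group. Every group shared the strain and free access to food, none carried an allele or received a treatment. The study set out to find genes that change over the lifespan in each muscle. The labels do not say which libraries came from the same mouse. Because all mice of an age group were collected on a single day, the effect of age and that of the collection day cannot be told apart.

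Long-chain fatty acids are released from circulating lipids at the capillary wall, cross the cell membrane, are joined to coenzyme A and enter the mitochondrion bound to carnitine. There they lose pairs of carbons in repeated rounds of dehydrogenation, hydration, a further dehydrogenation and thiolysis, and the electrons pass through the electron transfer flavoprotein to the respiratory chain. Slow, oxidative fibres rely on this route more than fast, glycolytic ones, and nuclear receptors of the PPAR family raise the transcription of many of its genes during fasting and exercise.

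Regions in front of the transcription start are shown for 4 loci. They are the divergent pair Hadha and Hadhb, and Ucp3, Pdk4 and Cd36, which differed between muscles or ages or are known PPAR targets. Fabp3 and Ppara, which differed more than Cd36 between soleus and tibialis anterior, are not shown. The sequences are RefSeq's on build GRCm38.p6, written 5′ to 3′ on the gene's strand (the plus strand for the Hadha and Hadhb region), and capitals mark AGGTCA or its reverse complement, the hexamer that PPAR and related receptors bind in repeats. Hadha and Hadhb encode the 2 subunits of the trifunctional protein and start 272 bases apart on opposite strands of chr5, with Hadha at chr5:30119423-30154980 on the minus strand and Hadhb at chr5:30155253-30184593 on the plus strand. The 272 bases at chr5:30154981-30155252 are 60.3% G or C and hold 18 CG pairs and no AGGTCA. The windows of the other genes are the 250 bases before the RefSeq start, at chr7:100472741-100472990 for Ucp3 (plus strand), chr6:5496279-5496528 for Pdk4 (minus strand) and chr5:17835897-17836146 for Cd36 (minus strand). The Cd36 window lies inside the span that RefSeq gives the gene, chr5:17781690-17888959, so it precedes a start within that span and not its outer end.
Hadha and Hadhb: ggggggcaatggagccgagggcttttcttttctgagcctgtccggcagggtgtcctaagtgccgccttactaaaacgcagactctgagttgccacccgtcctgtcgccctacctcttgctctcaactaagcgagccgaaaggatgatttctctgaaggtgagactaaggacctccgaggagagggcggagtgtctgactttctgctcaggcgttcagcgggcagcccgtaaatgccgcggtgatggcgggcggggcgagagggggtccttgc
Ucp3: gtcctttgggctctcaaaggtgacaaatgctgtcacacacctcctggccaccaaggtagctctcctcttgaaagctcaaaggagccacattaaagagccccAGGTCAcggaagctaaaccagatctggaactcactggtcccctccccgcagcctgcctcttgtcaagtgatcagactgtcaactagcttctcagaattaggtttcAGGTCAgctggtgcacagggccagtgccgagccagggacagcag
Pdk4: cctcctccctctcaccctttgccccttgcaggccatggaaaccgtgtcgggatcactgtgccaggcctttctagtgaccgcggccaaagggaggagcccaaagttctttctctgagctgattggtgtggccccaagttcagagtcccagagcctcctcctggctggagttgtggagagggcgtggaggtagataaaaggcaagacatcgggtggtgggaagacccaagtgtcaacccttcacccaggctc
Cd36: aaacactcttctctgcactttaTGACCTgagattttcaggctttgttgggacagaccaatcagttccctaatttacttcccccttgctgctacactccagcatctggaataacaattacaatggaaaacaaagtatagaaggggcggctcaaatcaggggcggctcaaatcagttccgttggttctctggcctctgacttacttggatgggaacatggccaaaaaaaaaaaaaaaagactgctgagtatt

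Ucp3 holds the hexamer at -149 to -144 and at -44 to -39, counted from the start site. Windows were found for 28 of the 34 genes (not for Angptl4, Acaa2, Decr1, Acot13, Lpl and Cpt1b). Searched on both strands, AGGTCA was in the windows of 5 of these 28 (Acadm, Cd36, Ucp3, Echs1 and Acadvl), 17.9%, against 15.8% of 27025 genes with a window of the same length. The spaced repeat AGGTCANAGGTCA, which contains the hexamer, was matched with up to 2 mismatches in Cd36, Ucp3, Echs1 and Etfa, 14.3% of the 28 against 3.72% of all genes. The hexamer extended to TCAAGGTCA, the form bound by estrogen-related receptors, was in 0.0% of the 28 windows and in 0.422% of all. These matches describe letters in short windows and were not tested as binding sites.

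Libraries held between 38583802 and 300089909 counts (median 72766895). Values are CPM, the usual unit of counts on a gene relative to the counts of its library, scaled with TMM factors over all 407 libraries. Summed markers of fast and slow fibres matched the muscle labels: at 6 months slow-fibre genes had a median sum of 15200 CPM in soleus, 1910 in diaphragm, 839 in gastrocnemius and 76.1 in tibialis anterior, and fast-fibre genes 10800, 14000, 90800 and 80600. The 6 general muscle genes had a lower median sum in diaphragm, 75100 CPM, than in gastrocnemius (250000), soleus (167000) and tibialis anterior (227000). The part of this in the differences between muscles was not tested. Sums of the 8 adipocyte markers were 260, 146, 163 and 104 CPM in diaphragm, gastrocnemius, soleus and tibialis anterior, those of the 6 endothelial markers 295, 234, 244 and 332, of the 5 macrophage markers 123, 46.1, 64.9 and 31.1, and of the 5 blood markers 476, 116, 212 and 154. Of the 2 brown adipocyte markers, Ucp1 reached at most 1.68 CPM in any library, and its sum with Elovl3 reached 71.5 in a diaphragm library and at most 5.22 in the other muscles. Summed adipocyte markers at 6 months ran from 174 to 468 CPM in diaphragm (121 to 1940 over all ages), from 96.9 to 335 in soleus, from 94 to 182 in gastrocnemius and from 81.0 to 134 in tibialis anterior; their part in the differences between muscles was not tested. Liver markers exceeded 1000 CPM in 3 libraries. By their median distance from other libraries of the same muscle and sex, 7 libraries stood apart, 5 of them from the diaphragm; the farthest, male diaphragm at 6 months replicate 2, had 0.603 CPM of Acads, 0.183 of Ppard and 0.917 of Mlycd. Counts of calls in the diaphragm and gastrocnemius are given with and without these libraries where they differ, and single diaphragm values where a call rests on them.

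At 6 months the uptake genes spanned nearly the whole range of levels seen among the 34. Lpl encodes lipoprotein lipase, which frees fatty acids from circulating triglyceride. Its lowest, median and highest CPM over 16 libraries were 1260, 2160 and 4110 in diaphragm, 1680, 2290 and 2750 in soleus, 454, 542 and 654 in gastrocnemius and 367, 471 and 657 in tibialis anterior. All soleus and diaphragm libraries lay above all gastrocnemius and tibialis anterior libraries. Fabp3, the fatty acid binding protein of heart and muscle cytosol, had 404, 673 and 845 CPM in soleus against 106, 162 and 213 in tibialis anterior, and Cd36, the fatty acid translocase of the cell membrane, 523, 795 and 904 against 262, 319 and 430. Neither gene overlapped between these 2 muscles. Per kilobase of exon, Fabp3 was the highest of the 34 genes in soleus and diaphragm, at 795 ± 174 and 611 ± 214 CPM per kb (SD, n = 16), followed by Lpl at 553 ± 62.9 and 540 ± 167, which in diaphragm was within 1 SD, and Pdk2, a pyruvate dehydrogenase kinase, in gastrocnemius and tibialis anterior, at 253 ± 17.6 and 267 ± 19.5. The lowest in all 4 muscles was Angptl4, a secreted inhibitor of lipoprotein lipase, at 0.726 ± 0.331 CPM per kb in tibialis anterior and 2.06 ± 1.08 in soleus. Without the 2 diaphragm libraries of this age that stood apart, Fabp3 was 659 ± 182 and Lpl 491 ± 96.3 CPM per kb in diaphragm (SD, n = 14). The lowest, median and highest CPM of Lpl were then 1260, 2140 and 2500 and those of Cd36 423, 599 and 746. Exon lengths are those of GENCODE, while the authors counted on their own gene model, so levels set across genes are approximate.

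**Figure D1:**
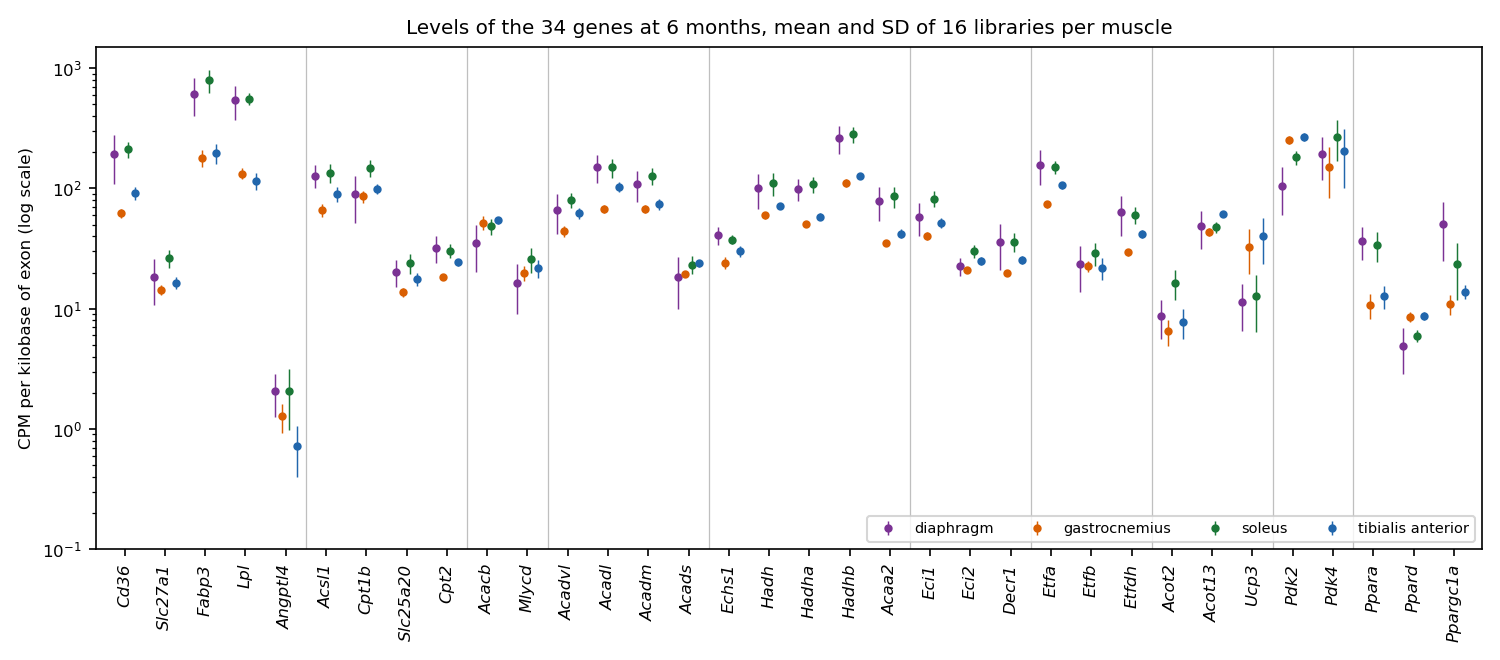
Level of each of the 34 genes at 6 months in CPM per kilobase of exon on a log axis, with genes ordered by role; points are means and bars SD over 16 libraries (8 of each sex) per muscle. Fabp3 and Lpl reach 795 and 553 CPM per kb in soleus, and Angptl4 lies lowest in every muscle.

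The first comparison asked how the pathway differs between a slow muscle, the soleus, and a fast one, the tibialis anterior, at 6 months. Counting genes that differed more than 1.5-fold at an adjusted p below 0.05, 16 of the 34 genes were higher in soleus, where 20.6% of all genes tested were higher, and 1 was lower, where 11.4% of all genes were. The median difference on the log2 scale was 0.54 over the 34 genes and 0.07 over all genes. All 5 uptake genes were higher: Lpl by 2.28 ± 0.09 on the log2 scale (4.87-fold; SE; adjusted p = 2.83e-31), Fabp3 by 2.02 ± 0.12 (adjusted p = 2.81e-23), Angptl4 by 1.57 ± 0.20 (adjusted p = 2.64e-10), Cd36 by 1.21 ± 0.10 (adjusted p = 4.8e-17) and the transporter Slc27a1 by 0.69 ± 0.18 (adjusted p = 0.000589). Of the genes that act inside the mitochondrion after the first dehydrogenation, 4 of 5 passed. Hadhb and Hadha, the trifunctional protein, were higher by 1.14 ± 0.07 and 0.89 ± 0.06 on the log2 scale, the thiolase Acaa2 by 1.02 ± 0.10 and the hydroxyacyl dehydrogenase Hadh by 0.61 ± 0.09, while the short-chain hydratase Echs1 stayed under the fold threshold at 0.34 ± 0.05. Of the acyl-CoA dehydrogenases, which begin each round, the medium-chain enzyme Acadm passed at 0.78 ± 0.08, and the long-chain Acadl, very-long-chain Acadvl and short-chain Acads had differences of 0.55, 0.36 and -0.03. None of the 3 electron transfer genes passed the fold threshold (Etfa 0.52, Etfb 0.40 and Etfdh 0.53).

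Among the genes of activation and the carnitine shuttle, the long-chain acyl-CoA synthetase Acsl1 and Cpt1b, the outer-membrane carnitine palmitoyltransferase of muscle, were both higher in soleus by 0.59 on the log2 scale, and the carnitine-acylcarnitine carrier Slc25a20 and the inner-membrane Cpt2 had differences of 0.45 and 0.32. Neither gene of malonyl-CoA, the inhibitor of Cpt1b, passed: Acacb, which makes it, differed by -0.17 ± 0.16 and Mlycd, which removes it, by 0.25 ± 0.20. Of the enzymes for unsaturated fatty acids, the isomerase Eci1 passed at 0.67 ± 0.10, and Eci2 and the reductase Decr1 had 0.27 and 0.50. Ppara, the PPAR receptor known for inducing oxidation genes, was higher in soleus by 1.44 ± 0.13 (adjusted p = 1.64e-14), with 50.7, 122 and 174 CPM against 33.1, 41.4 and 68.9, and the coactivator Ppargc1a by 0.77 ± 0.18 (adjusted p = 0.000215). The receptor Ppard had a difference of -0.55 ± 0.22 (adjusted p = 0.0236), under the fold threshold.

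By adjusted p alone, with no fold threshold, 26 of the 34 genes were higher in soleus than in tibialis anterior and 4 were lower. Of the lower genes only Ucp3 also passed the fold threshold. It encodes the uncoupling protein of muscle mitochondria, and its lowest, median and highest CPM were 11, 29.3 and 70.7 in soleus, 11.7, 25.3 and 55 in diaphragm, 30.8, 78.9 and 165 in gastrocnemius and 40.8, 92.5 and 209 in tibialis anterior. Its median was lower in both muscles with high uptake transcripts than in both fast muscles, and the ranges overlapped. It was lower in soleus than in tibialis anterior by a log2 difference of -1.65 ± 0.18 (adjusted p = 1.81e-12) and in diaphragm by -1.79 ± 0.18 (adjusted p = 5.32e-14). The thioesterase Acot2, which releases fatty acids from coenzyme A in mitochondria, went the other way in soleus, at 1.10 ± 0.16, and Acot13, a thioesterase of a different family, had -0.34 ± 0.09. Acot2 has a near-identical copy next to it, Acot1, so reads may be split between the pair; Acot1 was higher in soleus by 3.54 ± 0.29. The kinases that close pyruvate dehydrogenase and so spare glucose did not pass in soleus: Pdk4, the kinase known to rise in fasting, differed by 0.42 ± 0.22 (adjusted p = 0.0876) and Pdk2 by -0.55 ± 0.17.

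**Figure D2:**
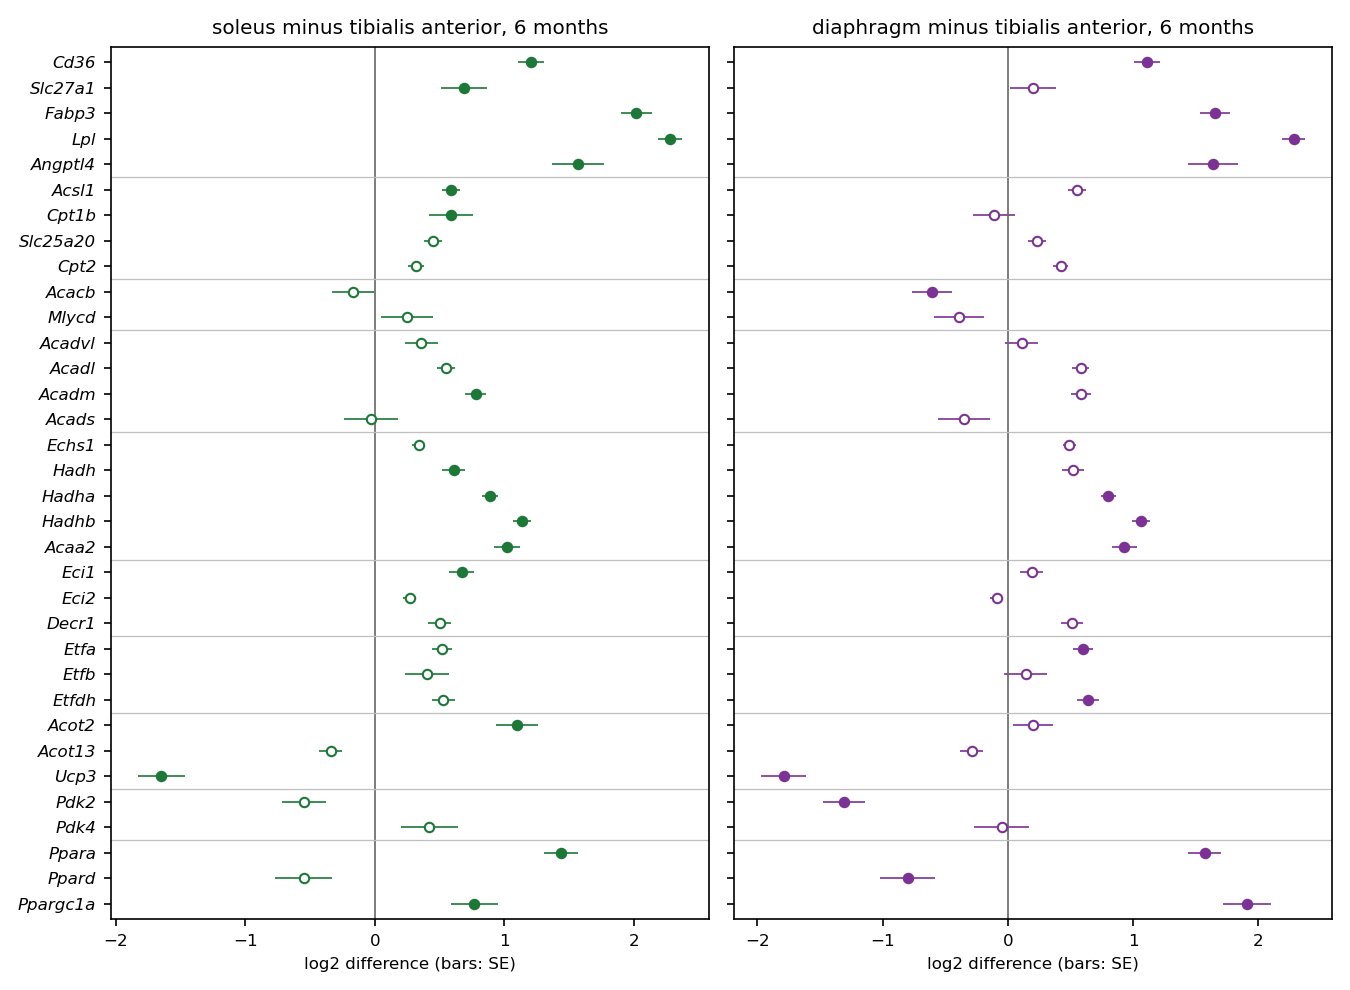
Log2 difference at 6 months of soleus and of diaphragm from tibialis anterior for each gene, with bars of 1 SE and genes ordered by role; filled points differ more than 1.5-fold at an adjusted p below 0.05. Lpl and Fabp3 lie farthest to the right and Ucp3 farthest to the left in soleus, at 2.28, 2.02 and -1.65.

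In the diaphragm against the tibialis anterior, 11 of the 34 genes were higher and 4 lower, where 34.2% and 18.6% of all genes were, so the share of higher genes was near that of all genes tested. The leading differences were again in uptake and regulation: Lpl 2.28 ± 0.09, Ppargc1a 1.91 ± 0.19, Fabp3 1.65 ± 0.12, Angptl4 1.64 ± 0.20, Ppara 1.57 ± 0.13 and Cd36 1.11 ± 0.10 on the log2 scale. Hadhb, Acaa2, Hadha, Etfdh and Etfa were also higher, by 1.06, 0.93, 0.80, 0.64 and 0.60. Besides Ucp3, the lower genes were Pdk2 at -1.31 ± 0.17, Ppard at -0.80 ± 0.22 and Acacb at -0.61 ± 0.16. Without the libraries that stood apart 10 genes were higher and 3 lower. Then Lpl was 2.14, Ppargc1a 1.81, Fabp3 1.75, Ucp3 -1.71, Pdk2 -1.15 and Ppard -0.62, while Acacb (-0.44), Etfdh (0.48) and Etfa (0.46) were under the fold threshold and Hadh (0.62) was over it. In the gastrocnemius against the tibialis anterior, 1 gene was higher, where 7.61% of all genes were, and 1 lower, where 2.3% were: Angptl4 at 0.89 ± 0.19 (adjusted p = 0.000247) and Acadl at -0.59 ± 0.07 (adjusted p = 1.75e-09). By adjusted p alone, with no fold threshold, 17 genes were lower and 2 higher in gastrocnemius, and the median difference was -0.25 over the 34 genes and 0.04 over all genes.

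Soleus and diaphragm, the 2 muscles with the higher uptake transcripts, differed in 5 genes. In soleus 4 were higher, where 10.6% of all genes were, and 1 lower, where 23.6% were. Acot2 was higher in soleus by 0.90 ± 0.16, Pdk2 by 0.76 ± 0.17, Cpt1b by 0.71 ± 0.17 and Mlycd by 0.65 ± 0.20, and Ppargc1a was lower, at -1.14 ± 0.18 (adjusted p = 2.05e-07). Without the libraries that stood apart 2 were higher (Acot2 0.77 and Pdk2 0.60) and 1 lower (Ppargc1a -1.04), and Cpt1b (0.55) and Mlycd (0.47) were under the fold threshold. With library sizes alone, without TMM factors, none of the 4 higher genes passed (Acot2 0.50, Pdk2 0.37, Cpt1b 0.31 and Mlycd 0.23). The median of the 34 genes then turned from 0.12 to -0.23, and Ppargc1a was -1.52. The absolute direction of small differences between muscles thus depended on scaling. With library sizes alone the median of all genes also moved from 0.07 to 0.58 in soleus and from 0.15 to 1.03 in diaphragm against tibialis anterior, and from -0.06 to -0.43 in soleus against diaphragm. Of the 34 genes 28 and 27 were then higher in soleus and diaphragm than in tibialis anterior. Relative to the median gene the 34 genes had a difference of 0.47 in soleus and 0.29 to 0.31 in diaphragm under either scaling. A change of scaling shifts every gene of a comparison by about the same amount, so this agreement was fixed in advance. Ppard and Acacb, called lower in diaphragm, had differences of 0.13 (adjusted p = 0.603) and 0.30 (adjusted p = 0.102) by edgeR, the sign of Acacb in soleus also turned (0.34), while Ucp3 stayed lower in both (-1.14 and -0.87).

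Of 102 other genes of lipid and fuel metabolism in 8 lists, 101 were tested between muscles. In soleus against tibialis anterior 20 were higher and 12 lower, where 20.6% and 11.4% of all genes were, and in diaphragm 25 and 16, where 34.2% and 18.6% were. Of the lipid droplet genes 6 were higher in soleus, led by Dgat2, which makes triglyceride (2.08 ± 0.16), and Plin5, a coat protein of droplets at mitochondria (1.26 ± 0.16), and the phosphatidate phosphatase Lpin1 was lower (-1.17 ± 0.09). The estrogen-related receptors Esrrg and Esrrb had the largest rises of their list (2.08 ± 0.09 and 2.04 ± 0.11), and a further member of that family, Esrra, is not given here. The retinoid receptors Rxrg and Rxra, the partners of PPAR, were lower (-1.58 ± 0.11 and -1.26 ± 0.12). The AMP-activated kinase subunits Prkag3 and Prkab2 were far lower in soleus, by log2 differences of -4.06 ± 0.12 and -2.97 ± 0.08. The ketone enzyme Bdh1 was higher by 2.58 ± 0.15. In gastrocnemius against tibialis anterior 4 of the other genes were higher and 1 lower (7.61% and 2.3% of all genes), and in soleus against diaphragm 10 and 12 (10.6% and 23.6%).

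The 34 genes differed widely in their spread between mice of a group, given as the median over 48 groups of the SD of log2 CPM. This SD was 0.65 for Pdk4, 0.62 for Angptl4, 0.59 for Ppargc1a, 0.56 for Ucp3, 0.35 for Acot2 and for Ppara and 0.30 for Fabp3. The other 27 genes lay between 0.12 (Acot13) and 0.25 (Mlycd), and the median of 12265 genes was 0.16. The spread of a gene sets the size of an age difference that can pass the test, so a change of a given size was harder to call in the first 5 genes than in the enzymes of the oxidation spiral. Many of the genes also varied together between libraries of a group. The median correlation of a gene with the other genes ran from 0.08 for Angptl4 to 0.63 for Hadha. Single pairs ran from -0.48 (Acot13 and Ppard) to 0.95 (Acacb and Acads). Counts out of 34 are therefore not counts of independent observations. The SDs of Acads and Acacb were largest in male diaphragm at 6 months, at 1.9 and 1.36. That group holds the library that stood farthest apart, and its part in these correlations was not tested.

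The main age comparison set 27 months against 6 months in each muscle and sex. Of the 34 genes, 1 passed in the same direction in 3 of the 8 combinations of muscle and sex and none in more. With an adjusted p below 0.05, 12 of the 34 genes rose in male gastrocnemius, where 10.6% of all genes rose, and 0 fell, where 12.6% fell. In female tibialis anterior 12 fell, where 9.84% of all genes fell, and 0 rose, where 12.1% did. The counts were 1 higher and 3 lower in female gastrocnemius (14.6% of all genes in each direction), 1 and 1 in female soleus (10% and 8.74%) and 1 and 2 in male tibialis anterior (9.97% and 7.81%). In female diaphragm (0.624% higher and 0.988% lower), male diaphragm (5.13% and 3.52%) and male soleus (1.8% and 1.05%) edgeR called 0 of the 34 genes, with 1, 1 and 4 at an unadjusted p under 0.05; limma-voom and DESeq2 also called 0, with 1 and 1, 2 and 2, and 2 and 4 unadjusted. Acot13 fell in 3 of the 8 combinations, Lpl, Echs1, Acaa2 and Pdk2 fell in 2, Ppard and Ppargc1a rose in 2, and Lpl also rose in 1. Acot13 and Ucp3 had log2 changes below 0 in all 8. The muscles of a sex may come from the same mice, so the 8 combinations are not independent. In bulk muscle a lower transcript level can mean fewer cells of a type or less RNA per cell, and these cannot be told apart.

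**Figure D3:**
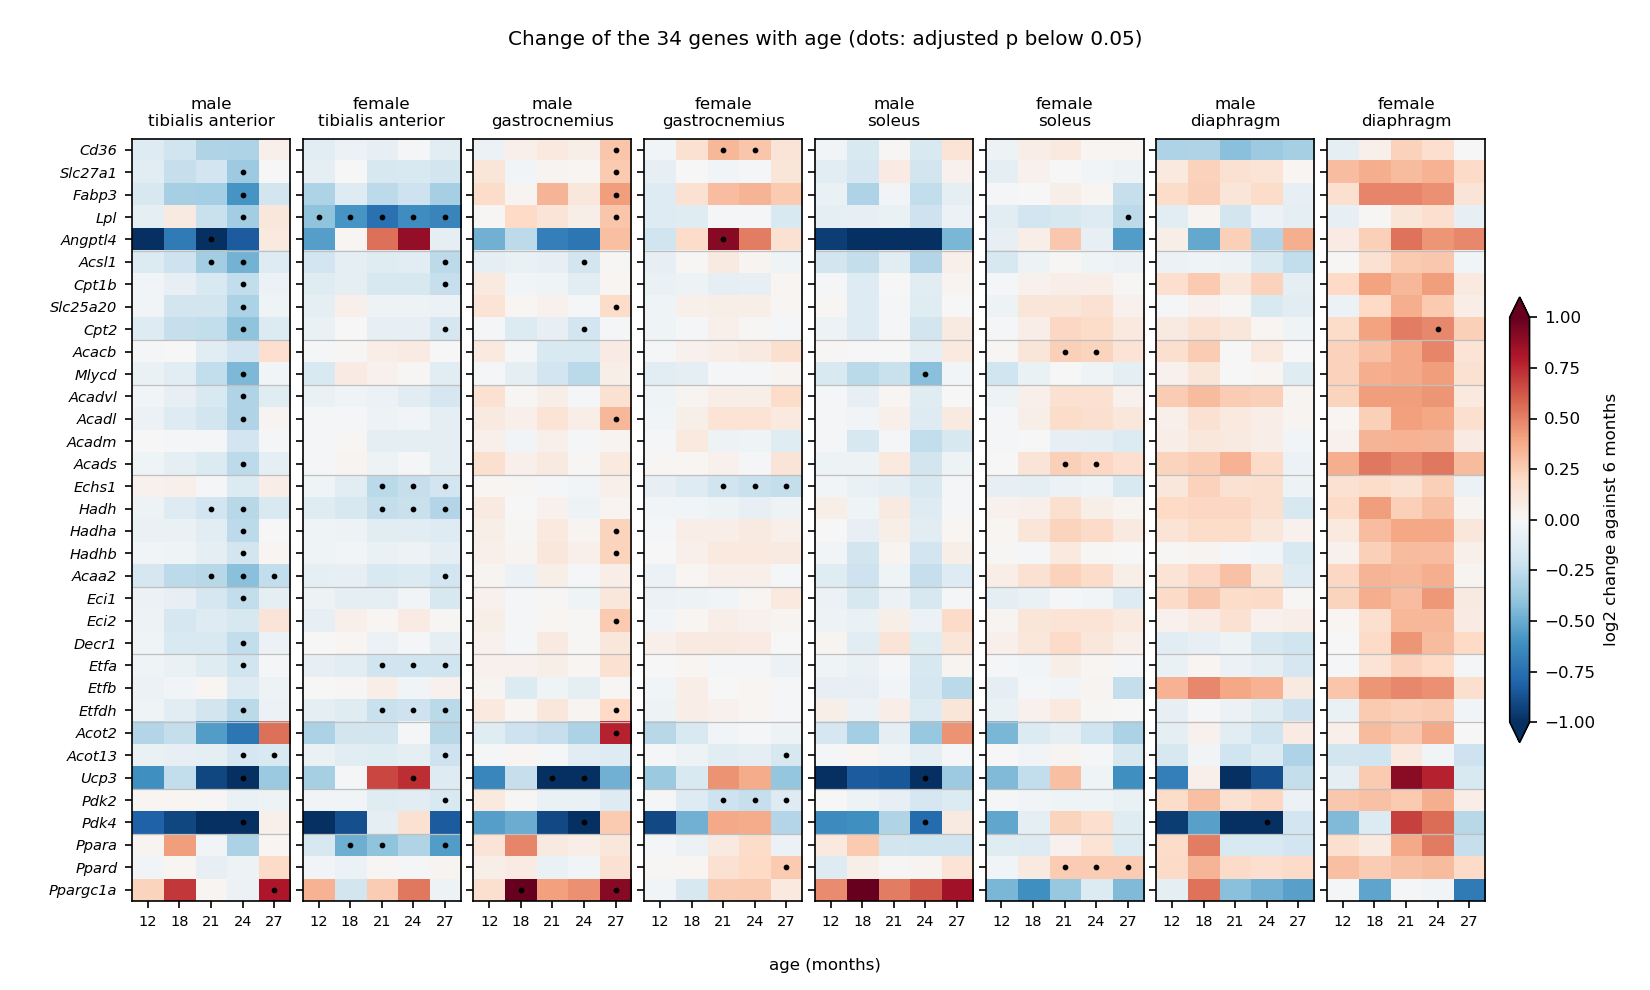
Log2 change from 6 months of each of the 34 genes (rows, by role) at each of the 5 older ages in each muscle and sex (columns); red is higher, blue lower, colours stop at 1 in either direction, and dots mark an adjusted p below 0.05. The male tibialis anterior column at 24 months holds 22 dots, all blue, and the male gastrocnemius column at 27 months 12, all red.

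In female tibialis anterior the fall was led by Lpl. Its lowest, median and highest CPM were 414, 511 and 657 at 6 months (n = 8), 360, 392 and 450 at 12 months, 311, 352 and 379 at 18 months, 244, 308 and 390 at 21 months, 271, 337 and 411 at 24 months and 242, 320 and 421 at 27 months (n = 10). The 12-month group still overlapped with the 6-month group, and from 18 months on only the highest value at 27 months exceeded the lowest at 6 months. The log2 change was already -0.40 ± 0.09 at 12 months (adjusted p = 0.0145) and -0.66 ± 0.08 at 27 months (adjusted p = 4.74e-08). Ppara went from 33.4, 50 and 68.9 CPM to 27.9, 32.4 and 42.5, a log2 change of -0.56 ± 0.12 (adjusted p = 0.000772), and Hadh from 116, 124 and 141 to 86.8, 101 and 110, a change of -0.29 ± 0.05 (adjusted p = 1.51e-05). Ppara overlapped between the 2 ages and Hadh did not. The remaining falls were small and spread over the pathway: Etfdh -0.27, Acsl1 -0.26, Cpt1b -0.23, Acot13 -0.21, Etfa -0.20, Echs1 -0.19, Acaa2 -0.19, Cpt2 -0.17 and Pdk2 -0.15. Of the 34 genes 31 were below 0, with a median of -0.15 against 0.0 for all genes. The summed endothelial markers, of the cells on whose surface lipoprotein lipase acts, went from a median of 333 CPM (range 293 to 378) at 6 months to 275 (224 to 369) at 27 months, and the adipocyte markers from 99.9 (81.0 to 110) to 97.9 (70.0 to 114); their part in the result was not tested. When 27-month libraries were left out in turn, 10 to 15 of the genes fell.

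In male gastrocnemius the rises were led by Ppargc1a and Acot2, but these rested on few libraries. Ppargc1a had 62.3, 67.8 and 88 CPM at 6 months and 48.7, 84.7 and 318 at 27 months, a log2 change of 0.91 ± 0.29 (adjusted p = 0.017), with the groups overlapping at their lower ends. Acot2 had 13, 15 and 19 CPM against 12.6, 17.2 and 115, a change of 0.77 ± 0.25 (adjusted p = 0.0226), which without the 27-month library numbered 8 was 0.13 ± 0.11 (adjusted p = 0.447). Steadier were Fabp3, with 138, 156 and 180 CPM against 167, 213 and 263 and a change of 0.42 ± 0.12 (adjusted p = 0.0103), and Acadl, with 123, 132 and 147 against 146, 159 and 240 and 0.33 ± 0.07 (adjusted p = 0.000549). Both overlapped little between the ages. The other rises were Cd36 and Lpl at 0.28, Slc27a1 and Eci2 at 0.26, Hadha and Hadhb at 0.22, Etfdh at 0.20 and Slc25a20 at 0.18. Hadha and Hadhb, which start at the 2 ends of the region shown above, had 189, 202 and 232 CPM against 216, 229 and 274, and 226, 235 and 263 against 246, 271 and 323. The median over the 34 genes was 0.13 and over all genes -0.0. Without library 8 the count of rises was 8 instead of 12: Acot2, Cd36 (0.18, adjusted p = 0.112), Slc27a1 (0.17, adjusted p = 0.141) and Slc25a20 (0.15, adjusted p = 0.0786) no longer passed, while Ppargc1a was 1.02 ± 0.28. Without the male gastrocnemius library that stood apart, at 12 months, 14 rose, with Acadvl (0.17) and Etfa (0.16) added.

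The other changes at 27 months were modest. In female gastrocnemius Echs1 fell from 37.4, 40.7 and 46.3 CPM to 28, 33.9 and 39, a log2 change of -0.24 ± 0.05 (adjusted p = 0.000318), Acot13 fell by 0.16 and Pdk2 by 0.13 on the log2 scale, and Ppard rose by 0.26 ± 0.08 (adjusted p = 0.0101). In female soleus Ppard rose by 0.25 ± 0.08 (adjusted p = 0.0238) and Lpl fell, at -0.26 ± 0.08 (adjusted p = 0.0184). In male tibialis anterior Ppargc1a rose by 0.81 ± 0.28 (adjusted p = 0.0366), and Acaa2 and Acot13 fell by 0.25 and 0.15. Echs1 overlaps the gene Paox, Fabp3 overlaps Zcchc17, Etfb overlaps Cldnd2 and Etfdh overlaps Ppid, and Cpt1b lies next to Chkb, with which read-through transcripts are known. The libraries were strand-specific, but the sources used here do not say how the counting used the strand.

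Of the 34 genes 11 passed in none of the 8 combinations at 27 months. Their log2 changes ran from -0.00 to 0.17 for Acacb, -0.12 to 0.15 for Mlycd, -0.17 to 0.18 for Acadvl, -0.16 to 0.08 for Acadm, -0.10 to 0.32 for Acads, -0.16 to 0.11 for Eci1, -0.20 to 0.20 for Decr1 and -0.27 to 0.16 for Etfb. The ranges were wider for the 3 genes with a large spread between mice: -0.56 to 0.48 for Angptl4, -0.61 to -0.13 for Ucp3 and -0.83 to 0.26 for Pdk4. Ucp3 was thus below its 6-month level in all 8 combinations without passing the test in any.

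Of the comparisons with 6 months at 24 and 27 months, the one with the most calls among the 34 genes was at 24 months in male tibialis anterior, a comparison chosen for a full account after its calls were seen. Here 22 of the 34 genes fell, where 6.3% of all genes tested fell, and 0 rose, where 9.12% did, and all 34 genes were below 0, with a median log2 change of -0.28 against 0.01 for all genes. Since many of the genes vary together between libraries, these are not separate observations. Pdk4 had 557, 755 and 1720 CPM at 6 months, 203, 383 and 491 at 21 months, 102, 238 and 687 at 24 months and 149, 570 and 3680 at 27 months. Its change at 24 months was -1.72 ± 0.41 (adjusted p = 0.00316). Ucp3 went from 79.8, 117 and 209 CPM at 6 months to 23.4, 44.2 and 159 at 24 months, a change of -1.19 ± 0.32 (adjusted p = 0.0082), and Fabp3 from 137, 179 and 194 to 79.4, 108 and 181, a change of -0.59 ± 0.14 (adjusted p = 0.00224). In all 3 genes the median of the 24-month group lay below the lowest 6-month library while its highest libraries overlapped.

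The falls covered every step from uptake to electron transfer in male tibialis anterior at 24 months. Acsl1 went from 361, 390 and 452 CPM to 222, 285 and 344, with no overlap and a change of -0.47 ± 0.08 (adjusted p = 0.000134). Mlycd fell by 0.45, Acaa2 by 0.42, Cpt2 by 0.40, Slc27a1 by 0.36, Lpl by 0.35, Slc25a20 by 0.32, Acadvl and Acadl by 0.30, Hadh by 0.28, Etfdh by 0.27, Hadha and Acads by 0.26, and Cpt1b, Eci1 and Decr1 by 0.25 on the log2 scale. Etfa, Hadhb and Acot13 fell by 0.20, 0.18 and 0.17. The 12 genes that did not pass were Cd36, Acacb, Acadm, Echs1, Eci2, Etfb, Acot2, Angptl4, Pdk2 and the 3 regulators Ppara, Ppard and Ppargc1a. When 24-month libraries were left out in turn, 19 to 24 genes fell. Medians of the summed markers of adipocytes were 107 CPM at 6 months (range 81.9 to 134) and 94.1 at 24 months (69.4 to 106), those of endothelium 332 (276 to 364) and 306 (219 to 408), of macrophages 31.5 (24.9 to 42.8) and 40.3 (24.7 to 148) and of clock and glucocorticoid genes 528 (392 to 582) and 455 (392 to 588); their part in the result was not tested.

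Elsewhere at 24 months fewer of the genes passed. In male gastrocnemius 4 fell, where 14.6% of all genes passed in either direction: Ucp3 (-1.30 ± 0.34), Pdk4 (-1.22 ± 0.34), Acsl1 and Cpt2. In male soleus 3 fell (4.46% of all genes), Ucp3 by a log2 change of -1.47 ± 0.27 (adjusted p = 0.000992), Pdk4 at -0.77 ± 0.22 (adjusted p = 0.0324) and Mlycd, and in male diaphragm 1 (1.27%), Pdk4 at -1.33 ± 0.33 (adjusted p = 0.0277), which without the diaphragm libraries that stood apart was -1.19 ± 0.33 and no longer passed (adjusted p = 0.057). In males Pdk4 and Ucp3 thus both fell in the 3 limb muscles at 24 months, which may come from the same mice. In females the counts were 1 higher and 5 lower in tibialis anterior (16.3%), 1 and 2 in gastrocnemius (19.2%), 3 and 0 in soleus (23.3%) and 1 and 0 in diaphragm (3.33%), and Ucp3 in tibialis anterior rose, at 0.74 ± 0.24 (adjusted p = 0.0277). In female diaphragm 32 of the 34 genes were above 0 at 24 months, with a median of 0.36, and the single call by edgeR (Cpt2, 0.48 ± 0.14, adjusted p = 0.0441) became 28 calls when limma-voom weighted libraries by quality and 5 without the libraries that stood apart.

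**Figure D4:**
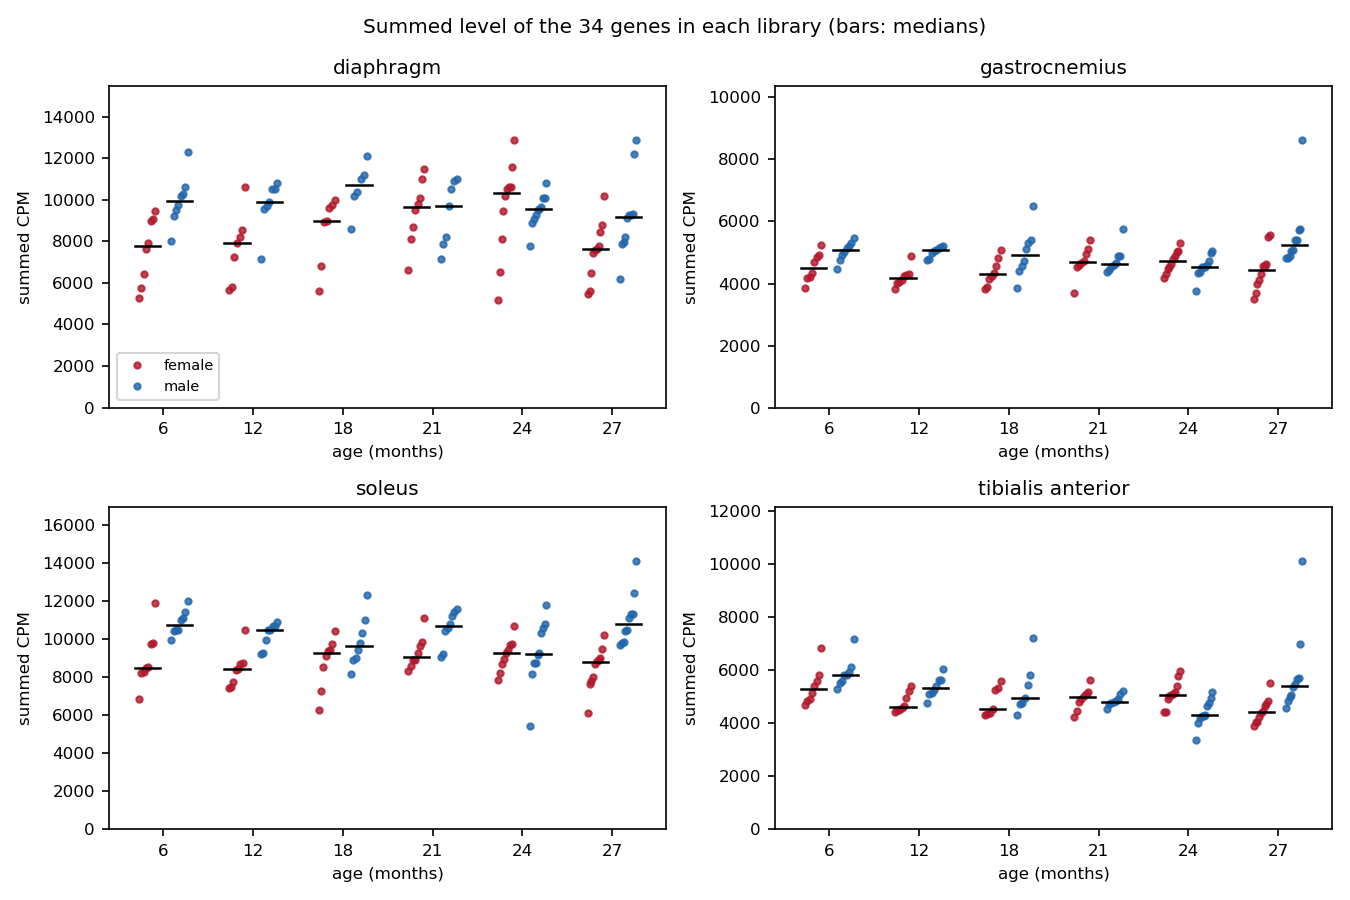
Summed CPM of the 34 genes in each library by age, for each muscle (panels) and sex (colours); points are single libraries and bars medians of a group. In male tibialis anterior the median goes from 5810 at 6 months to 4290 at 24 months and 5400 at 27 months, where 1 library reaches 10100.

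In male tibialis anterior the values at 27 months lay above those at 24 months. The summed CPM of the 34 genes had medians of 5810, 5310, 4950, 4810, 4290 and 5400 from 6 to 27 months. Between 24 and 27 months 19 genes rose, where 3.6% of all genes rose, all 34 were above 0 and the median was 0.26. The comparisons of 24 with 6 months and of 27 with 24 months share the 24-month libraries, so their opposite signs are not independent. Pdk4 rose by 1.77 on the log2 scale (adjusted p = 0.0073) and Acot2 by 1.27 (adjusted p = 0.00414); without library 8 of 27 months they were 1.14 ± 0.34 (adjusted p = 0.0529) and 0.61 ± 0.14 (adjusted p = 0.015), and 9 genes rose. Without library 6 of 27 months 11 genes rose. In male gastrocnemius 3 genes rose from 24 to 27 months (0.466% of all genes), Pdk4 by 1.48, Acot2 by 1.09 and Acadl by 0.26, and none of these 3 passed without library 8 (adjusted p = 0.102, 0.058 and 0.132); the count over other left-out libraries was 2 to 7, it was 11 without the libraries that stood apart and 0 without those high in liver markers, and limma-voom called 1 and DESeq2 8. In male soleus 2 rose (0.0782% of all genes), Ucp3 by 1.11 and Acot2 by 0.83, and the count was 0 to 4 as 27-month libraries were left out in turn, with 0 without library 2, 5, 7, 8 or 9; limma-voom called 0 and DESeq2 6. Ucp3 was the only gene that fell in females, in gastrocnemius (-0.76; 1.13% of all genes fell; not called without the libraries that stood apart) and tibialis anterior (-0.87; 1.43%). In female diaphragm, male diaphragm and female soleus edgeR called 0 from 24 to 27 months (11, 3 and 3 at an unadjusted p under 0.05), as did limma-voom (10, 3 and 2) and DESeq2 (11, 3 and 2).

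Among the 27-month male libraries a few stood out. Those numbered 8 had Pdk4 at 2740, 2560 and 3680 CPM in the gastrocnemius, the soleus and the tibialis anterior, more than any other library of their groups, and 2110 in diaphragm, again the highest. Acot2 in the same libraries was 115, 161 and 116 CPM in the limb muscles, against group medians of 17.2, 48.8 and 16.7, and Cd36 was 461, 1410 and 639. Ppargc1a, in contrast, was the lowest of the group there in gastrocnemius (48.7 CPM), tibialis anterior (51.4) and diaphragm (13.8), and 88.0 CPM in soleus. Only 2 glucocorticoid-responsive genes, Fkbp5 and Mt2, were read by library number. Fkbp5 is on the clock and glucocorticoid list and Mt2 is not. The other genes of that list were not read this way, so no state of these mice can be read from these 2 genes. Fkbp5 was highest in number 8 in the limb muscles, at 123, 66.9 and 122 CPM. Mt2, at 15.9, 33.6 and 10.6 CPM, was below numbers 1 to 3 (49.0 to 118, 58.3 to 117 and 46.6 to 70.8) and above the others. In diaphragm number 8 had the highest Mt2. The libraries numbered 1 to 3 had high Ppargc1a (183 to 318 CPM in gastrocnemius, 430 to 635 in soleus and 191 to 385 in tibialis anterior) and, with number 8, high Ucp3 (120 to 136 CPM in gastrocnemius for numbers 1 to 3, 100 for number 8). Whether equal numbers mark the same mouse is not stated by the labels.

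**Figure D5:**
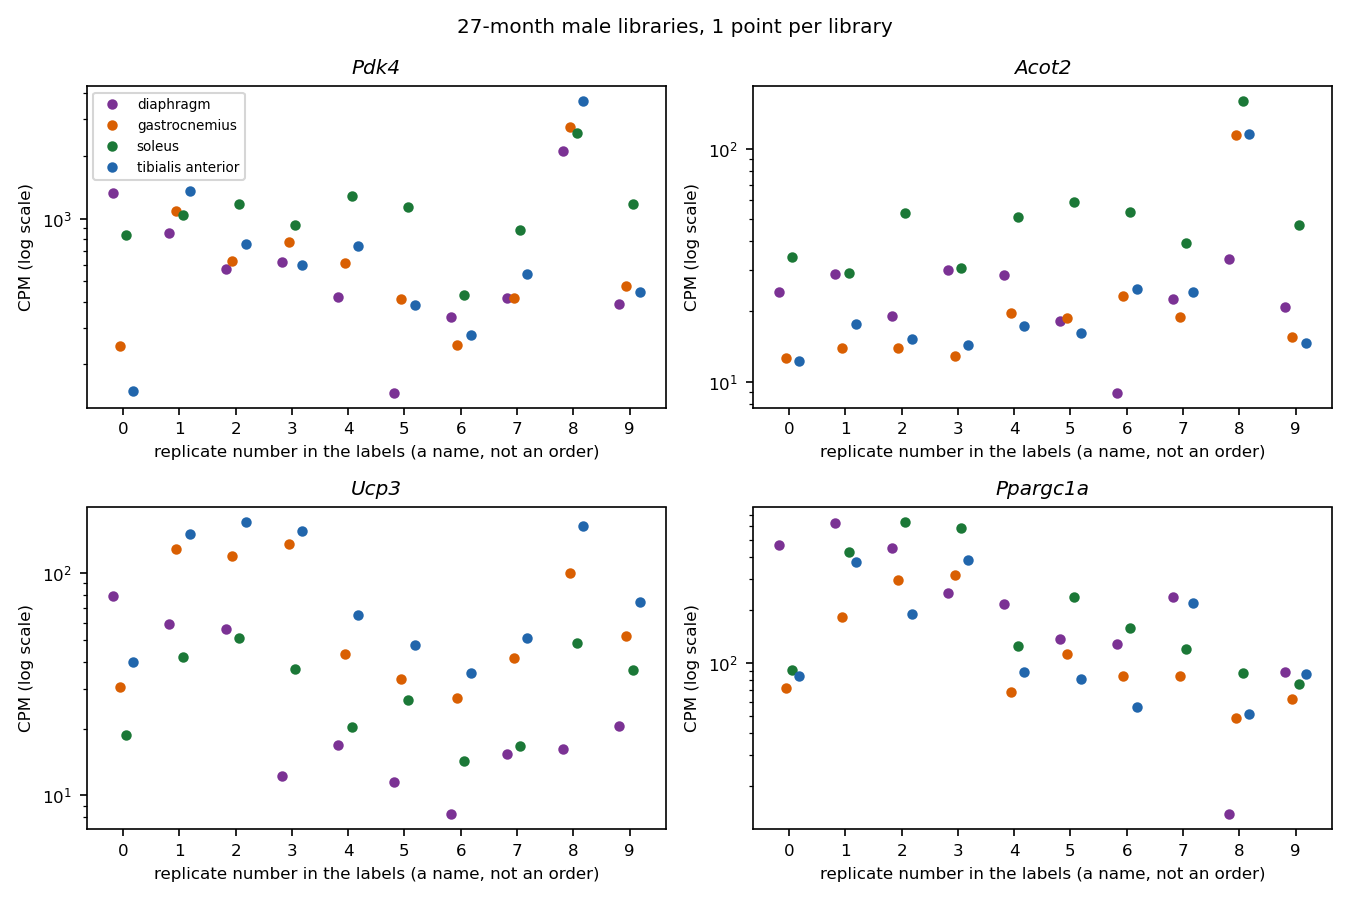
CPM of Pdk4, Acot2, Ucp3 and Ppargc1a on a log axis in the 10 male libraries of 27 months, by the replicate number in the labels, for the 4 muscles (colours). Number 8 has the highest Pdk4 in all 4 muscles (2110 to 3680 CPM) and the highest Acot2, and numbers 1 to 3 are among the 4 highest for Ppargc1a in each limb muscle.

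The study called a gene age-related only if it followed a linear or logistic trend over age, a step not applied here. Its threshold for a change was a fold change above 1.5 at any older age. By this rule with a Benjamini-Hochberg adjusted p below 0.05, the counts out of 34 were 0 in female diaphragm (2.95% of all genes), 1 in male diaphragm (11%), 1 in female gastrocnemius (9.44%), 4 in male gastrocnemius (8.06%), 0 in female soleus (8.52%), 2 in male soleus (2.85%), 2 in female tibialis anterior (9.25%) and 5 in male tibialis anterior (8.53%). Besides those named above, they were Ucp3 in male gastrocnemius at 21 months (-1.17 ± 0.36), Ppargc1a there at 18 months (1.08 ± 0.30, with 69.5, 146 and 227 CPM), and Angptl4. Angptl4 rose in female gastrocnemius at 21 months, from 1.83, 3.49 and 4.63 CPM to 3.66, 6.91 and 9.47 (0.91 ± 0.29), and fell in male tibialis anterior at 21 months, from 2.41, 3.04 and 4.55 to 0.278, 0.695 and 2.04, with no overlap (-1.73 ± 0.52).

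Females and males were compared at 6 months, with 8 libraries of each in every muscle. In soleus 15 of the 34 genes were lower in females, where 4.98% of all genes were, and 0 were higher, where 3.43% were, with a median log2 difference of -0.30 against 0.05 for all genes. Hadh had 142, 155 and 179 CPM in females and 207, 238 and 252 in males, with no overlap and a difference of -0.54 (adjusted p = 8.37e-08). Acaa2 had 90.8, 109 and 139 against 127, 155 and 170 (-0.44), and Acadl 212, 238 and 329 against 306, 331 and 345 (-0.41). Decr1, Slc25a20, Etfdh, Cpt1b, Acads, Acsl1, Hadha, Hadhb, Acadm, Acadvl, Eci2 and Etfa had differences from -0.39 to -0.22. The summed fast-fibre markers of the same libraries had medians of 9600 CPM in females (range 7300 to 11900) and 14300 in males (9630 to 18600), the slow-fibre markers 17600 (12500 to 22100) and 13500 (11400 to 17700), and the endothelial markers 214 (178 to 241) and 278 (248 to 330), with no overlap for the last; their part in the result was not tested. Without the libraries with more than 10 times the median of liver markers 6 genes were lower.

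In gastrocnemius Echs1 was higher in females by 0.26 ± 0.06 (9.13% of all genes were higher) and Acacb and Cpt1b lower, at -0.28 and -0.27 (10.7% were lower). In tibialis anterior Echs1 was again higher, by 0.22 ± 0.07 (6.44% were higher), and Cpt1b lower, at -0.17 ± 0.06 (7.14% were lower). In diaphragm edgeR called 0 (0.247% of all genes higher and 0.265% lower), although all 34 genes were below 0 with a median of -0.38 and 17 had an unadjusted p under 0.05, as by limma-voom; without the libraries that stood apart 2 were called.

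Whether the change from 6 to 27 months differed between the sexes was tested as an interaction. In tibialis anterior Lpl changed by -0.66 in females and 0.11 in males, a difference of -0.78 ± 0.15 (adjusted p = 0.00106), and was the only one of the 34 genes to pass, where 1.73% of all genes did. Male tibialis anterior Lpl had 367, 419 and 498 CPM at 6 months and 349, 473 and 550 at 27 months. In gastrocnemius Lpl also passed, with -0.15 in females and 0.28 in males (difference -0.45 ± 0.12, adjusted p = 0.0404), and so did Echs1, with -0.24 and 0.05 (-0.31 ± 0.08, adjusted p = 0.0183), where 1.6% of all genes passed. In soleus and diaphragm edgeR and limma-voom called 0 of the 34 (0.855% and 0.0% of all genes by edgeR), with 2 and 0 at an unadjusted p under 0.05 by edgeR and 0 and 0 by limma-voom. Whether the change differed among the 4 muscles was tested in each sex, and edgeR called 0 of the 34 genes in females (6.09% of all genes passed) and in males (2.08%), with 2 and 1 unadjusted and, by limma-voom, 0 called and 2 and 0 unadjusted. The different counts of the muscles at 27 months were therefore not shown to be differences between muscles.

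Of the 102 other genes of lipid and fuel metabolism, the counts at 27 months were 15 higher and 25 lower in female gastrocnemius (14.6% of all genes in each direction) and 8 and 14 in male gastrocnemius (10.6% and 12.6%). They were 9 and 6 in female soleus (10% and 8.74%) and 0 and 4 in male soleus (1.8% and 1.05%). In tibialis anterior they were 8 and 28 in females (12.1% and 9.84%) and 6 and 16 in males (9.97% and 7.81%). The counts were 1 and 0 in female diaphragm (0.624% and 0.988%) and 1 and 2 in male diaphragm (5.13% and 3.52%). The counts of higher genes were thus near or below the share over all genes. Some changes recurred across combinations. The acyl-CoA synthetase Acsl6 rose in 7 of the 8, all but male soleus, from 0.38 ± 0.10 in female soleus to 0.90 ± 0.16 in female diaphragm. The carnitine transporter Slc22a5 fell in both gastrocnemius groups, female soleus and both tibialis anterior groups, with log2 changes of -0.20 to -0.33. The mitochondrial pyruvate carrier subunit Mpc2 fell in both gastrocnemius groups, both tibialis anterior groups and male soleus, from -0.21 to -0.32.

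In female tibialis anterior, where 12 of the 34 genes fell, 7 of 12 pyruvate dehydrogenase genes and 7 of 15 nuclear receptors and coregulators also passed as lower, where 9.84% of all genes did, led by Pdk1 (-0.27 ± 0.04) and Esrrg (-0.48 ± 0.08). The ketone enzymes Bdh1 and Oxct1 fell by a log2 change of -1.25 ± 0.21 and -0.26 ± 0.04, and Dgat2 and the droplet protein Plin3 by -0.53 ± 0.08 and -0.45 ± 0.10. In male gastrocnemius Acot1, the copy next to Acot2, rose by 1.51 ± 0.44 and the triglyceride lipase Pnpla2 by 0.44 ± 0.13. In male tibialis anterior at 24 months 34 of 100 other genes fell and 2 rose, where 6.3% and 9.12% of all genes did, with 8 of 16 lipid droplet genes, led by Plin5 (-0.97 ± 0.21) and Dgat2 (-0.61 ± 0.13), 8 of 12 pyruvate dehydrogenase genes, led by the phosphatase Pdp2 (-0.49 ± 0.16), and the liver-type carnitine palmitoyltransferase Cpt1a (-0.58 ± 0.14).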

How the data were processed

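Strand-specific total RNA libraries, depleted of ribosomal RNA, were read in pairs of 76 bases. The authors aligned them in ArrayStudio (version not given in the sources used here) and counted fragments per gene on an in-house RefSeq model; the submitters' processing notes name build mm10. The deposited values are raw counts per gene, 1 table per library, with totals of 38583802 to 300089909.

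The 34 genes and the 8 lists of other pathway genes were chosen with earlier results of these data known. Counts were fitted for all genes in R 4.3.3 with edgeR 4.0.16 (TMM factors, filterByExpr, quasi-likelihood test, all ages of a muscle and sex in 1 fit; muscles at 6 months averaged over the sexes, from groups of muscle by sex), and p-values were Benjamini-Hochberg adjusted over all genes of a fit. limma 3.58.1 (voom), DESeq2 1.42.0, other scalings, no filter, a replicate block and left-out libraries were alternatives. P-values measure the spread between libraries. Muscles were treated as independent samples, since the labels do not name the mouse. Several muscles may come from the same mouse, so agreement across muscles is not independent evidence. All 34 genes passed the filter on low counts in every fit. Groups came from GEO's titles and characteristics, and all 407 libraries were used. The fits were tested on simulated data with the same dispersion for every gene and no library that stood apart. That test does not cover the genes with a large spread between mice. Comparisons of 27 with 24 months and leaving out libraries that stood apart were chosen after seeing the data.

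Genes were named by a rule: the 3 largest rises and falls past the test at 27 months in each muscle and sex, the 3 largest differences each way between muscles, genes changed more than 1.5-fold at any age, and genes past an interaction test, with at least 1 value for every other member. Levels per kb are CPM divided by the GENCODE exon length. The study itself used limma with a Bonferroni adjustment; limma-voom and a Bonferroni adjustment were each tried as alternatives.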

Additional observations from a re-analysis of the deposited data

Results flagged for a closer look

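Of 68 groups examined for a library far from the others (48 for the summed level of the 34 genes and 20 for single genes), chance flags about 1 in 20. The summed level stood far from the rest in male diaphragm at 12 months replicate 2 (7170 CPM; group median 9890), female gastrocnemius at 12 months replicate 1 (4890; 4180), male gastrocnemius at 21 months replicate 6 (5770; 4630), female soleus at 12 months replicate 1 (10500; 8410) and male tibialis anterior at 6 months replicate 5 (7160; 5810). Male replicate 8 of 27 months stood apart in gastrocnemius (8640; 5230) and tibialis anterior (10100; 5400). In the same libraries Pdk4 was 2740 CPM in gastrocnemius (group median 543), 2560 in soleus (1090) and 3680 in tibialis anterior (570), and Acot2 was 115 (17.2), 161 (48.8) and 116 (16.7). Angptl4 was far above its group in male diaphragm at 27 months replicate 8 (35.0 CPM; 6.57) and male gastrocnemius at 27 months replicate 1 (17.1; 3.68). What sets these libraries apart was not tested.

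The change from 6 to 27 months differed between females and males, by the interaction test of edgeR, for Lpl in tibialis anterior (-0.78) and gastrocnemius (-0.45) and for Echs1 in gastrocnemius (-0.31), all as female minus male change on the log2 scale.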

How the results depend on the processing

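The changes from 6 to 27 months of 26 named genes and groups were tried under 196 alternatives. Of these, 184 kept direction and side of the threshold, 12 lost the call and 0 reversed. Genes named only for an earlier age were among them, such as Pdk4 in male tibialis anterior (adjusted p = 0.949 by edgeR at 27 months). For these, keeping the side means staying uncalled, and their earlier changes are not part of this count. A Bonferroni adjustment is not part of this count either, and the calls it left are given below. Between muscles, library sizes alone turned the sign of Ppard and Acacb in diaphragm (0.13 and 0.30, neither called). The counts of genes called that moved by over 1.5 times in the main comparisons follow; the causes were not tested. At 27 against 6 months, quality weights gave 2 in female diaphragm, 2 in male diaphragm, 3 in male soleus and 7 in male tibialis anterior. A slope on log2 age gave 1 in male diaphragm, 8 in female and 6 in male gastrocnemius, 5 in female soleus and 9 in male tibialis anterior. A Bonferroni adjustment left 0 in both gastrocnemius groups, female soleus and male tibialis anterior and 2 in female tibialis anterior, and a fold above 1.5 left 0 in female gastrocnemius and female soleus, 2 in male gastrocnemius and 1 in each tibialis anterior group. Fitting only the 6- and 27-month libraries gave 6 in male gastrocnemius. Leaving out libraries high in liver markers gave 1 in male tibialis anterior (over 10 times the median) and 2 in male diaphragm (over 1000 CPM). Leaving out each 27-month library in turn gave 0 to 0 in female diaphragm, male diaphragm and male soleus, 3 to 4 in female gastrocnemius, 8 to 13 in male gastrocnemius, 2 to 4 in female soleus (4 without replicate 2), 10 to 15 in female and 2 to 4 in male tibialis anterior.

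In male tibialis anterior at 24 months Bonferroni left 1, a fold above 1.5 left 3, and leaving out 24-month libraries gave 19 to 24; 27 against 24 months gave 9 to 22, with 9 without replicate 8 and 11 without replicate 6. For 27 against 24 months limma-voom and DESeq2 gave 1 and 8 in male gastrocnemius and 0 and 6 in male soleus. For a fold above 1.5 at any age, a lower fold threshold gave 1 in female diaphragm, 2 in female gastrocnemius and 12 in male tibialis anterior; Bonferroni left 0 in male diaphragm, both gastrocnemius groups and male tibialis anterior and 1 in male soleus and female tibialis anterior; limma-voom gave 2 in male gastrocnemius. Between muscles, library sizes alone gave 29 for soleus and 28 for diaphragm against tibialis anterior, 1 for gastrocnemius and 1 for soleus against diaphragm; the latter had 8 by limma-voom and 3 without libraries that stood apart, and males alone gave 1 for gastrocnemius. Between sexes at 6 months the counts were 2 in diaphragm without libraries that stood apart, 6 in soleus without those high in liver markers and 1 in tibialis anterior with no filter. The sex-by-age count in gastrocnemius was 1 with no filter and 1 without libraries high in liver markers, and the muscle-by-age count in females was 1 without libraries that stood apart.

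Same-numbered libraries did not deviate together throughout: every pair correlated over 0.1 in 5 of 36 comparisons between limb muscles and in 0 between diaphragm and limb, so the numbers were not taken as pairing, although 161 of 306 limb pairs were closest to their own number (42 of 293 between diaphragm and limb), with median correlations of 0.01 to 0.52. The replicate block gave 3 genes in female gastrocnemius, 10 in male gastrocnemius, 13 in female and 1 in male tibialis anterior at 27 months, 23 in male tibialis anterior at 24 months and 13 there for 27 against 24 months, 4 in female tibialis anterior at any age, and 4 for the sexes in tibialis anterior. Between muscles it gave 17 for soleus, 14 for diaphragm and 2 for gastrocnemius against tibialis anterior and 5 for soleus against diaphragm, and 0 for the muscle-by-age test in either sex.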
